A study of Mus musculus with 4 samples.

Results

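The 10 genes described here encode receptors for neuropeptides on sensory neurons: *Galr1* and *Galr2* for galanin, *Sstr1* and *Sstr2* for somatostatin, *Npy1r* and *Npy2r* for neuropeptide Y, *Cckar* and *Cckbr* for cholecystokinin, *Avpr1a* for vasopressin, and *Prokr2* for prokineticins. They were chosen by symbol from the 31053 genes of the feature lists, and all 10 were found. Their unique molecular identifier (UMI) counts were followed across subtypes of dorsal root ganglion (DRG) neurons, between sham surgery and constriction injury (CCI) to the sciatic nerve, and between neurons with and without *Sprr1a*, a gene switched on when an axon is damaged.

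One single-cell library was made per sex and surgery (Male-Sham and Female-Sham after sham surgery, Male-CCI and Female-CCI after injury), and each of the 4 held GFP+ cells sorted from 20 lumbar (L4-5) DRGs of 5 mice, taken 7 days after bilateral surgery. All mice, sham included, were 7 to 8 weeks old on a C57BL/6 background. By the methods of the study they were heterozygous for the PirtEGFPf allele, in which a membrane-bound green fluorescent protein replaces the coding sequence of *Pirt* and is driven by its promoter. Because 5 mice were pooled in a library, the spread between mice was not measured. Littermates of both sexes received the same surgery, so litter and surgery cannot be told apart. Each surgery thus has a male and a female library as its replicates (n = 2). P-values of CCI against sham, unless sex was a block, measure the spread between these pools, differences between the sexes included. Where the library was a term of the fit, p-values leave the differences between pools out. This holds for neurons with against those without *Sprr1a* within CCI libraries and for the class-by-surgery test.

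All 10 are G protein-coupled receptors. The receptors of *Galr1*, *Sstr1*, *Sstr2*, *Npy1r*, and *Npy2r* act through inhibitory (Gi/o) proteins, lowering cyclic AMP, opening potassium channels, and reducing calcium entry, and on primary afferents they are known for dampening transmitter release. The receptors of *Galr2*, *Cckar*, *Cckbr*, *Avpr1a*, and *Prokr2* act mainly through Gq proteins and phospholipase C, which raises intracellular calcium. Sensory neurons make several of the peptides themselves, and galanin and neuropeptide Y are known to be induced in them after axotomy.

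The matrices held 195684124 to 237069156 UMIs per library in 4019 to 8035 cells. After cells with fewer than 1500 genes, cells with more than 10% mitochondrial UMIs, and the cells with the highest doublet scores were removed, 15715 cells were left, and the median depth of a library was 31941.5 to 55255 UMIs per cell. Between 215 and 513 cell barcodes were shared by each pair of deposited libraries, but only 17 barcodes (34 cells) after the filters. The receptor genes were left out of the clustering, and clusters were named with the class names of the study and "-like" from other marker genes: nonpeptidergic NP1 to NP3, peptidergic PEP1 to PEP5, neurofilament-rich NF1 and NF2, low-threshold C fibers (cLTMR), and CCI-ind. The last were the clusters with markers of the injury-induced clusters of the study, and their cells came mostly from CCI libraries. Levels are CPM, the UMIs of a gene summed over the cells of a group and scaled to a common total of 1000000 UMIs, and all sets of 4 values are in the order sham males, sham females, CCI males, CCI females. Neurons numbered 3281, 5398, 2817, and 3637. They were called *Sprr1a*+ where the normalized value of *Sprr1a* was above 1, which held for 42, 144, 1467, and 1789 neurons. *Sprr1a* therefore defined these groups and is no result. The neurons below the limit were not free of injury RNA, since in *Sprr1a*- neurons *Sprr1a* was still 4.83 higher in CCI than in sham and *Atf3*, an injury-induced transcription factor, 0.62 higher (log2, edgeR adjusted p = 0.018 and 0.0096). RNA of *Pirt*, on whose promoter the sort relies, was lower by 1.38 on the log2 scale in *Sprr1a*+ CCI than in *Sprr1a*- sham neurons (adjusted p = 3.0e-07), and the part of the sort in the results below was not tested.

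The receptors divided the classes of sham neurons between them. *Npy1r* (GRCm38 chr8:66697192-66706792, plus strand), the main postsynaptic-type receptor for neuropeptide Y, was the most abundant: its level was 369 ± 47 CPM in PEP3/4-like, 233 ± 0.81 in PEP2-like, 197 ± 37 in PEP5-like, and 83.7 ± 3.5 in PEP1-like neurons (mean ± SD, n = 2 libraries), and at most 9.91 CPM in the other classes. The ranges of these 4 classes did not overlap. *Sstr2* (chr11:113619342-113626028, plus strand) was far more restricted, with 181 ± 7.4 CPM in PEP3/4-like neurons, 17.7 ± 2.1 in PEP2-like, and 6.56 ± 0.67 in PEP1-like neurons. The study itself tells its PEP3 and PEP4 clusters from PEP1 and PEP2 by *Sstr2*. This order was thus in part set by the class names and is no independent result. PEP3/4-like neurons held 65.1% of the 12266 *Sstr2* UMIs of sham neurons and 43.7% of the 37750 *Npy1r* UMIs.

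*Npy2r* (chr3:82538383-82548084, minus strand), the presynaptic-type receptor for neuropeptide Y and its fragments, had its highest level in another class, NP1-like neurons, at 301 ± 15 CPM. NF2-like neurons followed with 52.9 ± 3.7 CPM and PEP1-like neurons with 20.9 ± 0.18 CPM. *Galr1*, the galanin receptor with the higher level here, was spread over PEP2-like (45.0 ± 2.1 CPM), PEP1-like (27.4 ± 2.8), PEP3/4-like (22.5 ± 8.8), NP3-like (13.9 ± 0.97), and NF2-like neurons (10.4 ± 0.74), and was at most 0.243 CPM elsewhere. The ranges of PEP1-like and PEP3/4-like neurons overlapped. *Galr2* (chr11:116280939-116283938, plus strand) was near the limit of detection, with 77 UMIs in all sham neurons and at most 0.954 CPM in a class (PEP2-like). *Sstr1* (chr12:58211772-58214444, plus strand) was low throughout, highest in PEP1-like neurons at 6.64 ± 1.0 CPM, and the ranges of the next 4 classes, PEP5-, PEP3/4-, NF1-, and PEP2-like, ran into each other from 1.63 to 4.38 CPM.

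The receptors that act mainly through Gq, of which *Galr2* has been given, each had their highest level in a different class. *Cckar* (chr5:53697776-53707705, minus strand), which prefers sulfated cholecystokinin, was a gene of low-threshold fibers, at 51.1 ± 3.4 CPM in cLTMR-like and 17.5 ± 3.8 in NF1-like neurons, and cLTMR-like neurons held 77.1% of its 3055 sham UMIs. *Prokr2* (chr2:132337733-132385447, minus strand) was at 45.0 ± 8.6 CPM in NF2-like and 23.0 ± 0.95 in PEP2-like neurons, which held 38.8% and 37.9% of its 1273 sham UMIs, and the next class, PEP1-like, was at 2.61 ± 0.73 CPM. *Avpr1a* (chr10:122448499-122453452, plus strand), the vasopressin receptor of smooth muscle, liver, and neurons, was at 21.3 ± 1.1 CPM in PEP3/4-like neurons, at 1.19 ± 0.31 and 1.15 ± 0.095 CPM in PEP1-like and PEP2-like neurons, and had no UMI in NP1-, PEP5-, or cLTMR-like neurons. *Cckbr* (chr7:105425731-105470898, plus strand), which binds gastrin as well as cholecystokinin, was nearly absent from sham classes, at 6.47 ± 5.4 CPM in NP1-like and at most 0.0961 CPM in the other 9 classes. Only 6 of its 48 UMIs in NP1-like sham neurons were in *Sprr1a*- cells, which were at 0 and 2.15 CPM, and the others were in 4 male and 16 female *Sprr1a*+ cells. Of its 444 UMIs in sham neurons, 86.7% came from the 179 CCI-ind-like cells of the sham libraries.

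**Figure D1:**
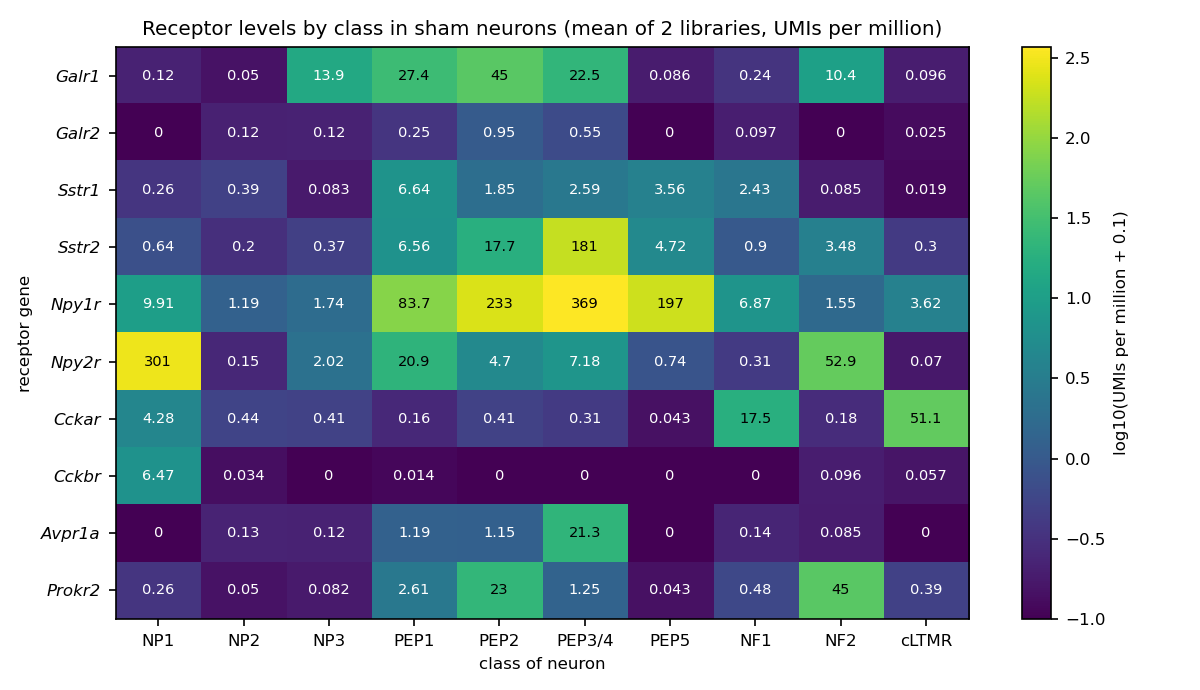
Mean level of each receptor (rows) in each class of sham neurons (columns), printed as CPM (mean of the 2 sham libraries) and colored on a log10 scale. The 4 peptidergic columns carry Npy1r at 83.7 to 369 CPM, Npy2r stands at 301 in NP1, Cckar at 51.1 in cLTMR, and Cckbr is at 0 or nearly so outside NP1.

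Within a class the receptors also split its clusters, which are given here by their leading genes. Of the PEP3/4-like clusters, the *Cartpt* cluster had *Npy1r* at 471, 494, 608, and 645 CPM and the *Dcdc2a* cluster at 258, 326, 328, and 426 CPM. *Avpr1a* had the opposite order, 3.68, 4.80, 9.63, and 12.9 CPM in the *Cartpt* cluster and 32.7, 33.4, 32.3, and 44.4 CPM in the *Dcdc2a* cluster, and *Sstr2* was high in both. In sham PEP2-like neurons *Prokr2* was at 48.2 and 39.6 CPM in the *Col25a1* cluster but at 0.239 and 0.528 CPM in the *Dcn* cluster, and *Galr1* at 83.4 and 71.3 CPM against 11.2 and 8.27 CPM. In the PEP1-like class *Npy2r* was at 51.5 and 50.8 CPM in the *Fgg* cluster against 11.8 and 8.64 CPM in the *Cldn9* cluster, while *Galr1* was highest in the *Fgg* and *Pcp4l1* clusters (66.1 and 46.5, and 46.4 and 38.6 CPM). *Cckar* was at 82.5 and 89.6 CPM in the *Th* cluster of cLTMR-like neurons and at 9.99 and 11.6 CPM in the *C1ql4* cluster. An unnamed cluster of 863 cells led by *Sstr2*, *Fabp7*, and *Apoe*, in which 6 of the 7 markers of satellite glia passed, had *Sstr2* at 183, 167, 132, and 125 CPM and *Npy1r* at 294, 369, 443, and 511 CPM, close to PEP3/4-like neurons.

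Over the 10 classes, the genes most like a receptor in mean sham level were found among 8113 genes of at least 20 CPM in some class, by Pearson's r of log2(CPM + 1). They were *Ythdc1* for *Npy1r* (r = 0.986), *Napg* for *Npy2r* (0.989), *Ctnnd2* for *Sstr2* (0.950), *Ptpn12* for *Galr1* (0.972), *Scap* for *Sstr1* (0.898), *Ctcflos* for *Galr2* (0.966), *Rabl3* for *Cckar* (0.934), *Pigk* for *Avpr1a* (0.957), and *Col25a1* for *Prokr2* (0.953). *Col25a1* was also among the markers that named PEP2-like clusters. For *Cckbr* they were *Sst* (0.999) and *Sprr1a* (0.998). These 2 values rest on the NP1-like class, where most *Cckbr* UMIs were in *Sprr1a*+ cells. That of *Galr2* rests on levels of at most 0.954 CPM. Among the receptors themselves *Sstr2* was most like *Avpr1a* (r = 0.911), then *Npy1r* (0.821). These are descriptions over 10 points that share 2 libraries.

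For 7 of the 10 receptors a promoter was found in a RefSeq table of mouse promoters (GRCm38.p6, 250 bases before to 50 after the RefSeq start of the gene). Of these, 3 are shown because their genes moved furthest or in opposite ways below: *Cckbr*, which had the largest rise, *Sstr2*, which fell in damaged neurons, and *Npy1r*, which was lower over all *Sprr1a*+ neurons but higher in NP1- and NF2-like *Sprr1a*+ neurons. Motifs found on either strand are in capitals: the AP-1 motif (TGACTCA or TGAGTCA), bound by Jun, Fos, and related injury-induced factors, and the cyclic AMP response element (TGACGTCA). These motifs do not overlap each other in their letters.
Cckbr promoter, chr7:105425481-105425780, plus strand: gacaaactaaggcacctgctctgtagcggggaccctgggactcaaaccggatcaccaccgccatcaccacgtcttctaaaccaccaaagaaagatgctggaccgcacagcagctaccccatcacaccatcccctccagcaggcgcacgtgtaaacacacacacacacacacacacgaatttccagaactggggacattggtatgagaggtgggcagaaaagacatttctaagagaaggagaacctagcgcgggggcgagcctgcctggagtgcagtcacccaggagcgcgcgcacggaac
Npy1r promoter, chr8:66697172-66697471, plus strand: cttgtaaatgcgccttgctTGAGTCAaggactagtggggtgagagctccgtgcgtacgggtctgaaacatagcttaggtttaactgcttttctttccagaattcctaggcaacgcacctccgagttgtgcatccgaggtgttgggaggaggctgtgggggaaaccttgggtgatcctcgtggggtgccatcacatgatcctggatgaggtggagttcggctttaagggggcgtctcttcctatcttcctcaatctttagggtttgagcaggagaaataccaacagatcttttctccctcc
Sstr2 promoter, chr11:113619077-113619376, plus strand: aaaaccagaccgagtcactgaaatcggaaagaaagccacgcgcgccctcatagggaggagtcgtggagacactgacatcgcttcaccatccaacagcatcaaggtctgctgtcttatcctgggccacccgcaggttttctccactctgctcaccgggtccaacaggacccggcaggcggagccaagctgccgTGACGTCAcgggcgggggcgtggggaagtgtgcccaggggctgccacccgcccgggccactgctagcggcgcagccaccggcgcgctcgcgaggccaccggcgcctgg
The AP-1 motif was found in the *Npy1r* promoter and in none of the other 6. It starts at position -231 from the RefSeq start (chr8:66697422), which lies 230 bases after the GENCODE start of the gene given above, so that from the GENCODE start the motif is at -1. The cyclic AMP response element was found in the *Sstr2* promoter and in none of the other 6, at position -58 from the RefSeq start (chr11:113619327) and -73 from the GENCODE start. For *Cckbr* both starts are the same base. Of all 32851 promoters in the table, 5.20% held the AP-1 motif and 1.79% the cyclic AMP response element.

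Over all neurons, CCI shifted the set of receptors: *Cckbr*, *Prokr2*, *Cckar*, and *Npy2r* rose, and *Sstr2*, *Galr1*, and *Galr2* fell. *Cckbr* was at 0.807, 1.65, 26.1, and 24.3 CPM, 4.39 higher in CCI on the log2 scale (SE 0.37, adjusted p = 0.00198). *Prokr2* was at 3.21, 3.97, 11.4, and 9.51 CPM (1.59, SE 0.14, adjusted p = 0.000252). *Sstr2* was at 33.9, 35.7, 12.3, and 14.1 CPM, a fall of 1.34 (SE 0.08, adjusted p = 3.23e-05), and *Galr1* at 13.4, 11.7, 5.54, and 6.32 CPM fell by 1.02 (SE 0.09, adjusted p = 0.000165). In each of these genes both CCI libraries lay on 1 side of both sham libraries. *Npy2r* (14.9, 13.0, 24.7, and 23.1 CPM) and *Cckar* (7.67, 9.56, 13.8, and 16.7 CPM) rose by less than 1 log2 unit, and *Galr2* rested on 77 sham and 17 CCI UMIs. *Npy1r*, at 91.7, 121, 85.3, and 112 CPM, differed more between the sexes than between the surgeries, *Avpr1a* (3.80, 4.39, 2.59, and 4.42 CPM) also overlapped, and *Sstr1* (2.16, 2.29, 2.68, and 2.31 CPM) was 0.22 higher in CCI (adjusted p = 0.167). So 7 of 10 receptors were called, at an adjusted p below 0.05 and a log2 change above 0.5 in size (edgeR's quasi-likelihood test, Benjamini-Hochberg over all genes), against 27.8% of all 17233 genes tested. In sums over neurons, fewer cells of a class and less RNA per cell cannot be told apart, and the shares of the classes differed between sham and CCI libraries.

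The split by *Sprr1a* gave the largest differences. In *Sprr1a*+ neurons of CCI, *Sstr2* was at 0.329 CPM in males and 0.471 in females, against 34.4 and 36.9 CPM in *Sprr1a*- sham neurons, a fall of 6.33 on the log2 scale (SE 0.13, adjusted p = 1.63e-08). *Galr1* was at 0.0454 and 0.0620 CPM, or 9 UMIs in both libraries, against 13.6 and 12.1 CPM in sham (log2 -7.74, SE 0.17, adjusted p = 1.87e-08). Both inhibitory receptors were thus close to undetected in damaged neurons. *Avpr1a* was at 0.511 and 0.620 CPM against 3.86 and 4.53 (log2 -2.75, SE 0.17, adjusted p = 2.81e-06), and *Galr2* fell from 77 UMIs to 1, a 37.8-fold lower level with an exact 95% interval of 6.59 to 1514 that covers counting error only (adjusted p = 0.000692). *Npy1r* fell less, to 36.6 and 40.1 from 92.9 and 124 CPM (log2 -1.36, SE 0.16, adjusted p = 0.00148).

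In the other direction, *Cckbr* was at 46.3 and 45.5 CPM in *Sprr1a*+ CCI neurons and at 0.0376 and 0.136 CPM in *Sprr1a*- sham neurons, a log2 difference of 9.13 (SE 0.25, adjusted p = 1.29e-06). The few *Sprr1a*+ neurons of the sham libraries, 42 and 144 cells that entered no test, had *Cckbr* at 49.6 and 47.9 CPM, as high as in CCI. *Prokr2* rose to 16.4 and 12 from 3.24 and 4.01 CPM (log2 2.11, SE 0.19, adjusted p = 0.000239), *Cckar* to 19.9 and 21.1 from 7.41 and 9.21 (1.45, SE 0.11, adjusted p = 1.80e-05), and *Npy2r* to 33.3 and 28.6 from 14.7 and 12.8 (1.32, SE 0.10, adjusted p = 1.55e-05). In *Sprr1a*+ sham neurons *Prokr2* was at 1.19 and 2.66 CPM and *Npy1r* at 11.5 and 10.3 CPM, below the *Sprr1a*+ CCI neurons in both sexes. *Sstr1*, at 3.08 and 2.31 against 2.18 and 2.33 CPM, was the only receptor not called (0.40, SE 0.16, adjusted p = 0.0515). In all, 4 receptors rose and 5 fell, against 49.8% of all genes called in either direction. Satellite glial RNA was lower in the *Sprr1a*+ neurons: the summed level of the 7 glia markers was 914 and 1198 CPM against 1403 and 1739 CPM, with no marker at 0, and its part in these differences was not tested.

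**Figure D2:**
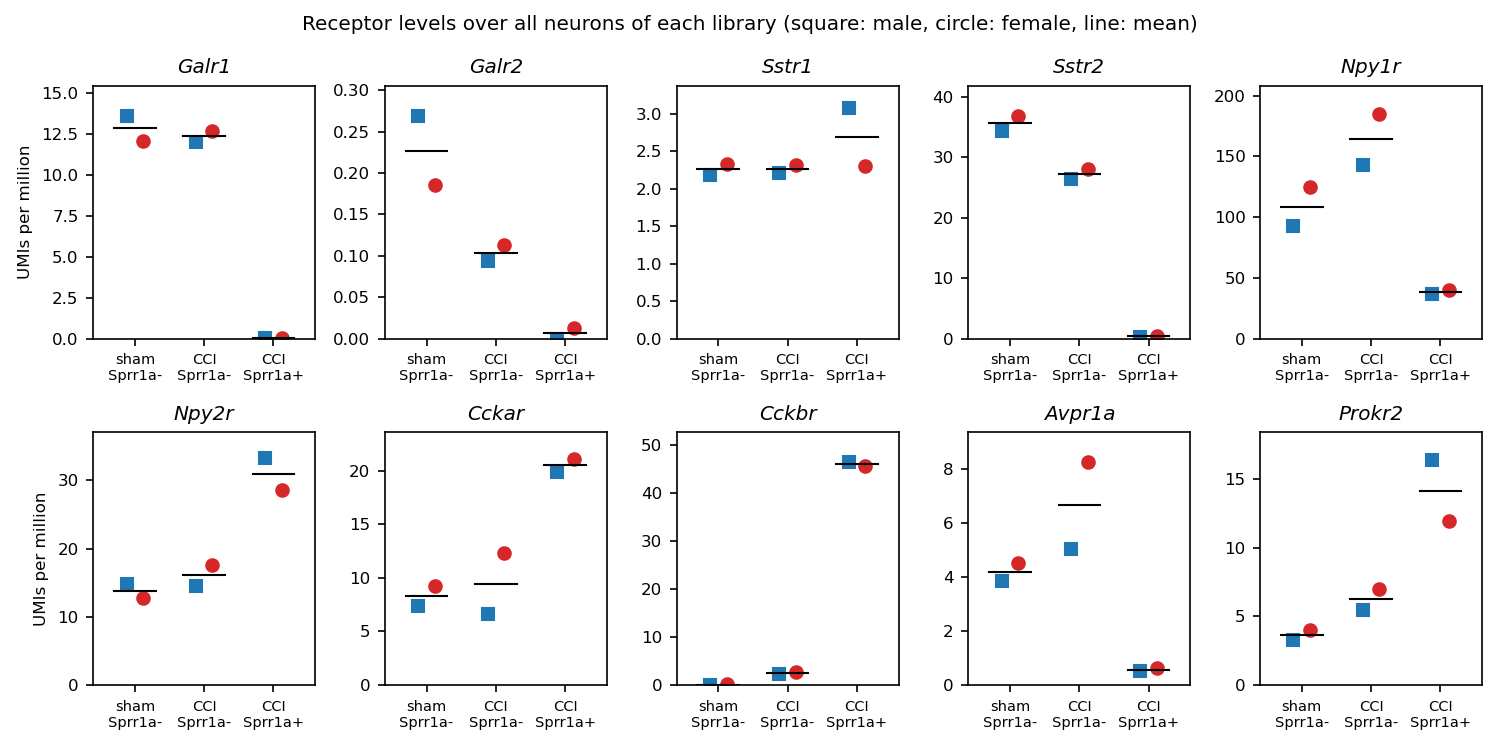
Level of each receptor in CPM (y axis, from 0) over all Sprr1a- sham, Sprr1a- CCI, and Sprr1a+ CCI neurons of a library (squares male, circles female, lines the mean of 2 libraries). Galr1, Sstr2, and Avpr1a are near 0 in Sprr1a+ CCI neurons, at most 0.620, while Cckbr stands at 45.5 and 46.3 there and at 2.77 or below elsewhere.

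The same split within the CCI libraries, where damaged and spared neurons came from the same ganglia and the library was a block in the fit, called 6 of the 9 receptors tested, against 45.6% of all genes. *Sstr2* was lower by 5.92 (SE 0.10, adjusted p = 1.35e-11), *Galr1* by 7.64 (SE 0.17, adjusted p = 6.08e-11), *Avpr1a* by 3.36 (SE 0.15, adjusted p = 7.32e-09), and *Npy1r* by 1.91 log2 units (SE 0.07, adjusted p = 7.38e-06). *Cckbr* was higher by 4.38 (SE 0.08, adjusted p = 7.24e-10) and *Npy2r* by 1.12 (SE 0.17, adjusted p = 0.0247). *Cckar* (1.32, SE 0.33, adjusted p = 0.113) and *Prokr2* (1.34, SE 0.31, adjusted p = 0.077) were not called. This comparison shares its *Sprr1a*+ cells with the one before. Of the *Sprr1a*+ CCI neurons, 1087 of 1467 in males and 1388 of 1789 in females lay in CCI-ind-like clusters, whose class of origin is not known, so over all neurons a change within a class and a change in the classes present cannot be told apart. Where the limit for *Sprr1a*+ was any UMI in place of a normalized value above 1, the falls of *Avpr1a* (log2 -0.56, adjusted p = 0.13) and *Npy1r* (-0.35, adjusted p = 0.22) against sham were no longer called.

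In 4 classes there were enough named *Sprr1a*+ cells for a comparison with the *Sprr1a*- sham neurons of that class: NP1-, PEP5-, NF1-, and NF2-like. The PEP5-like class had only 17 male and 20 female *Sprr1a*+ CCI cells. *Cckbr* rose in each of the 4 classes. In NP1-like neurons, which sense itch-related signals, it was at 41.0 and 41.8 CPM against 0 and 2.15 in sham (log2 5.54, SE 0.38, adjusted p = 8.25e-11). In NF2-like neurons it was at 29.0 and 33.4 CPM against 0 and 0.192, 339-fold higher with an exact interval of 60.5 to 13435 since sham held 1 UMI. In PEP5-like neurons, the cold-sensing class marked by *Trpm8*, it was at 23.4 and 32.4 CPM with no UMI in sham, at least 192-fold higher against a limit of 3 UMIs over the group. In NF1-like neurons it was at 10.4 and 5.88 CPM, at least 71.1-fold higher on the same basis. All 8 *Sprr1a*+ values lay above every sham value. The *Sprr1a*+ NF1-like cells lay almost wholly in the *Ntng1* cluster, while 54 of 148 male and 45 of 165 female sham cells lay in the *Pvalb* cluster. The part of this mix in the NF1-like differences from sham was not tested.

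*Npy1r* did not follow its all-neuron fall within these classes. It rose in NP1-like neurons, to 17.8 and 23.2 from 3.37 and 5.37 CPM (log2 2.33, SE 0.27, adjusted p = 3.34e-11), and in NF2-like neurons, to 26.6 and 22.7 from 1.37 and 1.73 CPM (4.24, SE 0.26, adjusted p = 7.18e-07), although the latter was not called when doublets were kept (2.24, adjusted p = 0.11). In NF1-like neurons it was at 20.0 and 42.3 against 3.94 and 9.80 CPM but the female and male values were far apart (2.39, SE 0.69, adjusted p = 0.0721). PEP5-like neurons, in which *Npy1r* is high to begin with, had 209 and 274 against 171 and 224 CPM, a difference of 0.46 that was under the limit for a call. *Npy2r* moved in opposite directions: in NP1-like neurons, its main class, it fell to 126 and 118 from 328 and 332 CPM (-1.37, SE 0.10, adjusted p = 3.58e-19), and in PEP5-like neurons it rose to 5.39 and 8.82 from 0.457 and 1.03 CPM (3.34, SE 0.78, adjusted p = 0.00388, 9 against 16 UMIs). Without the female CCI library the latter was 2.89 (adjusted p = 0.17). In NF2-like neurons *Npy2r* was 67.9 and 48.5 against 55.5 and 50.3 CPM, and the groups overlapped.

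*Prokr2* had its largest rise in a class that lacked it. In NF1-like neurons, the large myelinated fibers, it was at 56.6 and 41.1 CPM in *Sprr1a*+ neurons against 0.387 and 0.582 in sham (7.02, SE 0.28, adjusted p = 3.91e-10), which is as high as in sham NF2-like neurons. In NP1-like neurons it was at 11.2 and 11.3 against 0.259 and 0.358 CPM (2 UMIs in sham), 37.3-fold higher with an exact interval of 10.2 to 311. NF2-like neurons, its main class, had 54.7 and 66.2 against 39.0 and 51.1 CPM, a small rise of 0.66 (SE 0.15, adjusted p = 0.00338) that was 0.46, under the limit for a call, without the male sham library. *Cckar* rose in NF1-like neurons, to 65.5 and 117 from 14.8 and 20.2 CPM (2.63, SE 0.34, adjusted p = 0.0037), and in NP1-like neurons, to 13.5 and 16.8 from 1.56 and 3.22 CPM (2.78, SE 0.33, adjusted p = 4.34e-11).

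Besides that of *Npy2r* in NP1-like neurons, the falls called within these classes were those of *Galr1* and *Sstr2* in NF2-like neurons. *Galr1* was at 9.91 and 11 CPM there in sham and had no UMI in *Sprr1a*+ CCI neurons, at least 39.3-fold lower. *Sstr2* went to 0.142 and 0.232 from 2.73 and 4.23 CPM (2 against 38 UMIs), 19.5-fold lower with an exact interval of 5.04 to 167. *Avpr1a*, low in all but the PEP3/4-like class, instead rose in NF1-like neurons to 4.44 and 4.11 from 0.0773 and 0.194 CPM (27 against 3 UMIs), 33.7-fold with an exact interval of 10.4 to 174. In NP1-like neurons all 5 receptors tested were called, where 41.5% of all genes were. NF2-like neurons had 5 of 6 called beside 43.0% of genes, NF1-like neurons 4 of 6 beside 45.5%, and PEP5-like neurons 2 of 5 beside 23.4%. A receptor nearly absent from sham, such as *Prokr2* in NP1-like neurons (148 against 2 UMIs), passed the filter on low counts only through *Sprr1a*+ cells. These numbers of calls were thus partly set by the filter.

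**Figure D3:**
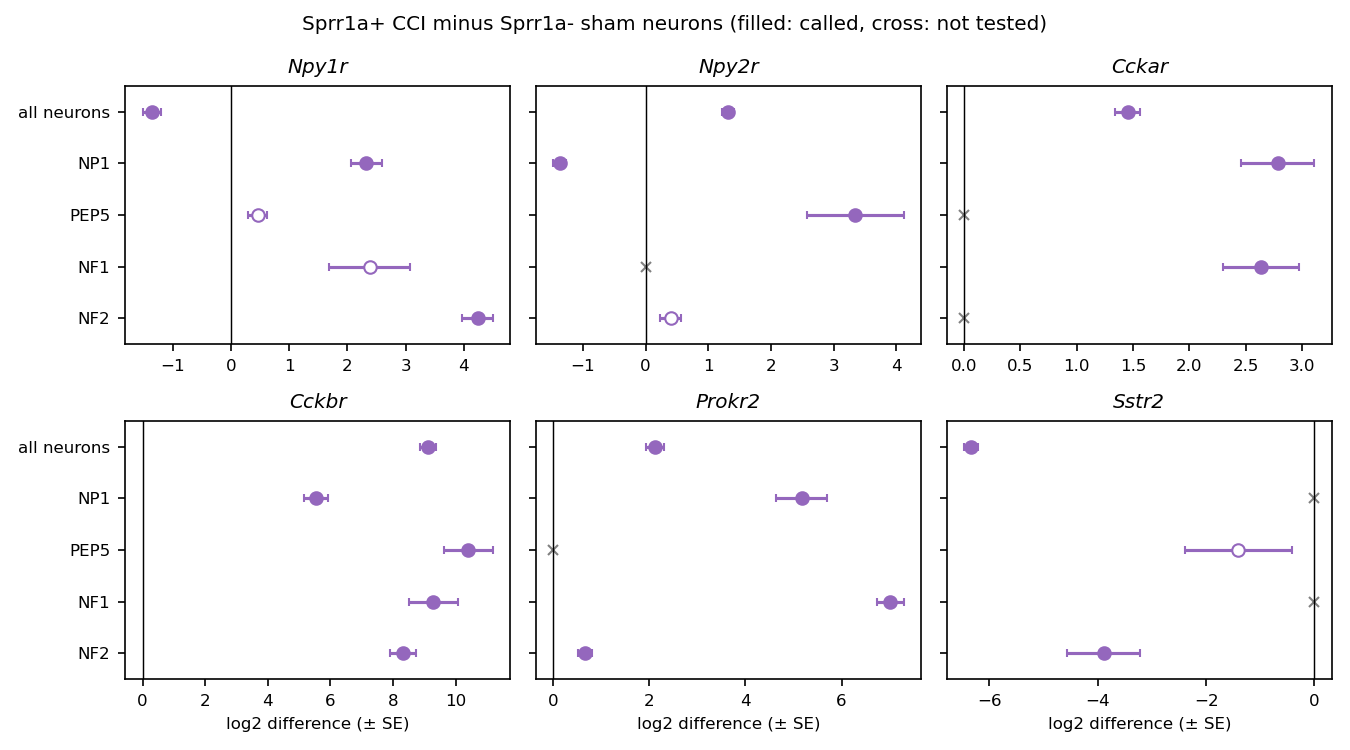
Log2 difference (x axis, ± SE from edgeR) between Sprr1a+ CCI and Sprr1a- sham neurons of 6 receptors in all neurons and in each of 4 classes, with filled points called, open points not called, and crosses not tested. Npy1r lies at -1.36 in all neurons but at 2.33 in NP1 and 4.24 in NF2, and Cckbr is far right of 0 in every row, where the PEP5 and NF1 points depend on the prior count because sham had no UMI.

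*Sprr1a*+ neurons were also set against *Sprr1a*- neurons of the same class and the same CCI ganglia. A receptor nearly absent from *Sprr1a*- cells, such as *Avpr1a* in NF1-like neurons, passed the filter on low counts only through *Sprr1a*+ cells. *Galr1* in NF2-like neurons passed only through *Sprr1a*- cells. The numbers of receptors called below were thus partly set by the filter. In NF1-like neurons 5 of 5 receptors tested were higher in *Sprr1a*+ cells (43.8% of all genes called): *Prokr2* by 4.65 (SE 0.25), *Cckbr* by 4.43 (SE 0.57), *Cckar* by 2.03 (SE 0.13), and *Npy1r* by 1.80 log2 units (SE 0.21), and *Avpr1a* was 18.8-fold higher with an exact interval of 4.73 to 163, from 2 UMIs in *Sprr1a*- cells. NP1-like neurons had 4 of 5 called (23.1%), with *Cckbr* higher by 1.55 (SE 0.22) and *Npy1r* by 1.18 (SE 0.36, adjusted p = 0.0445), *Npy2r* lower by 1.15 (SE 0.10), and *Prokr2* 13.2-fold higher (interval 4.43 to 64.8). In PEP5-like neurons 3 of 5 were called (20.5%): *Cckbr* was higher by 5.85 (SE 0.63), *Npy2r* by 3.09 (SE 0.86), and *Sstr2* was lower, 2 UMIs against 119. NF2-like neurons had 5 of 6 called (34.2%), with *Cckbr* higher by 4.41 (SE 0.32), *Npy1r* by 2.46 (SE 0.23), and *Prokr2* by 0.51 (SE 0.13), *Galr1* at least 50.9-fold lower, and *Sstr2* 14.7-fold lower (interval 3.57 to 130). Of these, *Prokr2* lay at the limit of 0.5 and lost its call under 6 alternatives, with values of 0.38 to 0.52, DESeq2 among them (adjusted p = 0.24). With DESeq2 *Galr1* (adjusted p = 0.15) and *Sstr2* (adjusted p = 0.18) in NF2-like, *Sstr2* in PEP5-like (adjusted p = 0.35), and *Npy1r* in NP1-like neurons (adjusted p = 0.19) were not called either. With any UMI as the limit for *Sprr1a*, *Npy1r* (1.14, adjusted p = 0.72) and *Cckar* (1.03, adjusted p = 0.39) were not called in NF1-like neurons. With a limit of 2, *Npy1r* in NP1-like neurons was at 0.12 (adjusted p = 0.81). Without the library as a block it was not called in NP1-like (adjusted p = 0.19) or NF1-like neurons (adjusted p = 0.078), and without the clusters with satellite glial RNA *Sstr2* was not called in PEP5-like neurons (adjusted p = 0.090). The *Sprr1a*+ NF1-like cells came almost wholly from 1 cluster, led by *Ntng1* (53 of 55 in males and 30 of 32 in females). *Prokr2* there was at 56.7 and 44.2 CPM in *Sprr1a*+ against 2.99 and 4.88 CPM in *Sprr1a*- CCI cells, and *Cckar* at 65.6 and 126 against 15.6 and 30.2 CPM. *Cckbr*, *Npy1r*, and *Avpr1a* are not given within this cluster, and the part of the mix of clusters in their differences was not tested.

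The CCI-ind-like neurons fell into 4 clusters that shared *Cckbr* and otherwise differed in their receptors. *Cckbr* was at 48.2 and 42.0 CPM in the *Anxa1* cluster of Male-CCI and Female-CCI, 59.8 and 57.6 in the *Wfdc3* cluster, 51.1 and 45.4 in the *Crh* cluster, and 62.5 and 63.9 in the *Ly6a* cluster. *Npy1r* set the *Ly6a* cluster apart, at 211 and 179 CPM against 39.7 and 33.3 in the *Wfdc3* cluster and at most 6.85 in the others. *Npy2r* was at 74.6 and 65.6 CPM in the *Ly6a* and 63.1 and 43.9 CPM in the *Wfdc3* cluster, and at most 2.88 CPM in the others. *Cckar* marked the *Crh* cluster, at 58.8 and 90.9 CPM, ahead of the *Anxa1* cluster at 22.0 and 16.5 CPM. *Prokr2* lay between 4.52 and 14.1 CPM in all 4, *Galr1* and *Sstr2* were at most 0.209 and 1.94 CPM, and *Sstr1* was highest in the *Ly6a* cluster (10.4 and 6.98 CPM). An unnamed cluster led by *Gal*, *Prss12*, and *Slc6a4*, with 138 and 143 of its 287 cells in the CCI libraries, had *Cckbr* at 33.4 and 32.5 CPM and *Npy1r* at 103 and 90.5 CPM. Since clusters were made from these cells, the differences between them are a description. Within CCI-ind-like cells of CCI libraries, *Sprr1a*+ against *Sprr1a*- cells gave 2 calls of 8 (3.02% of all genes): *Npy1r* was 31.8 and 35.3 against 113 and 82.3 CPM (-1.46, SE 0.13, adjusted p = 1.38e-05) and *Cckar* 21.8 and 22.5 against 1.81 and 10.0 CPM (1.85, SE 0.37, adjusted p = 0.035). The call of *Cckar* was lost with DESeq2 (adjusted p = 0.43), with a limit of 2 for *Sprr1a* (0.64), with doublets kept (0.47), and without the library block (adjusted p = 0.068). The mix of clusters also differed. The *Ly6a* cluster, high in *Npy1r*, held 8 of 36 and 22 of 69 *Sprr1a*- cells (males, females) but 132 of 1087 and 242 of 1388 *Sprr1a*+ cells. The *Crh* cluster, high in *Cckar*, held 0 and 6 *Sprr1a*- against 175 and 194 *Sprr1a*+ cells. The part of this mix in the 2 calls was not tested. *Cckbr* was at 53.1 and 49.3 against 47.1 and 47.2 CPM (0.17, adjusted p = 0.522).

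**Figure D4:**
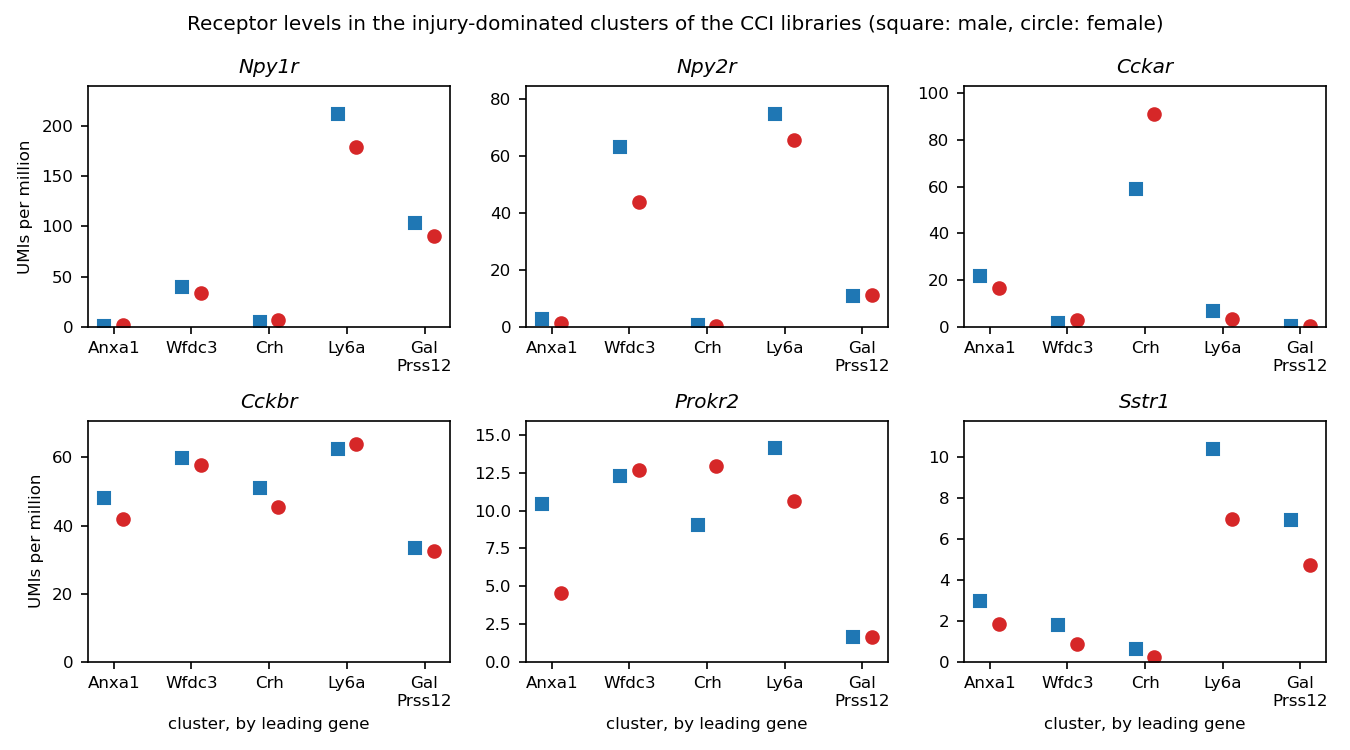
Level of 6 receptors in CPM (y axis, from 0) in the 4 CCI-ind-like clusters and the unnamed Gal Prss12 cluster of the CCI libraries (squares male, circles female). Cckbr lies between 32.5 and 63.9 in every cluster, whereas Npy1r peaks in the Ly6a cluster at 179 and 211 and Cckar in the Crh cluster at 58.8 and 90.9.

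*Sprr1a*- neurons of the CCI ganglia, which the study takes as uninjured, differed from sham in fewer receptors. Over all of them *Galr1* was at 13.6, 12.1, 12, and 12.7 CPM, a log2 difference of -0.08 (SE 0.07, adjusted p = 0.511), and *Sstr1* at 2.18, 2.33, 2.21, and 2.32 CPM (-0.02, SE 0.12, adjusted p = 0.932). *Sstr2* was at 34.4, 36.9, 26.3, and 28.1 CPM, lower by 0.41 (SE 0.06, adjusted p = 0.00789), which is under the limit of 0.5 for a call. *Prokr2* rose, from 3.24 and 4.01 to 5.47 and 7.03 CPM (0.76, SE 0.16, adjusted p = 0.0246), but was not called without the male sham library (0.60, adjusted p = 0.09) or without the female CCI library (0.56, adjusted p = 0.11). With any UMI as the limit for *Sprr1a*, *Sstr2* was 0.07 higher in CCI (adjusted p = 0.49) and *Prokr2* 0.25 higher (adjusted p = 0.34). *Cckbr* rose from 0.0376 and 0.136 to 2.20 and 2.77 CPM (4.76, SE 0.42, adjusted p = 0.00409). Of its 384 UMIs in *Sprr1a*- CCI neurons, 245 came from the 36 and 69 CCI-ind-like cells without *Sprr1a* and 52 from NP1-like cells. *Npy1r* was at 92.9, 124, 143, and 185 CPM and *Avpr1a* at 3.86, 4.53, 5.05, and 8.27 CPM, and in both genes the CCI library was above the sham library of its sex, but with the sexes apart neither was called (0.57, SE 0.21, and 0.64, SE 0.25, both with an adjusted p of 0.149). With sex as a replicate block they were (adjusted p = 2.52e-06 and 0.00313), and 5 receptors were called in place of 2. The 2 called are to be read against 4.48% of all genes, and the share of all genes called with the block is not given here. *Npy2r* (14.7, 12.8, 14.5, and 17.6 CPM) and *Cckar* (7.41, 9.21, 6.63, and 12.3 CPM) overlapped between the surgeries, and *Galr2* had 77 UMIs in sham and 16 in CCI (adjusted p = 0.0834).

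Within the 10 classes, where 1.12% (NF1-like) to 5.35% (PEP1-like) of all genes were called, 45 pairs of receptor and class passed the filter on low counts. Of these pairs 9 were called, 8 of them higher in CCI. Most lay in peptidergic classes, but so did most pairs tested: 7 each in PEP1-, PEP2-, and PEP3/4-like and 3 in PEP5-like neurons. NP1-, NP2-, and NP3-like neurons had 1 call each, of 3, 3, and 4 tested. A receptor nearly absent from sham, such as *Cckbr* in NP1-like neurons, passed the filter only through CCI cells and could be called only as a rise. In PEP2-like neurons 3 of 7 receptors were called, against 4.26% of all genes. *Avpr1a* rose from 1.22 and 1.09 to 7.50 and 11 CPM (3.01, SE 0.31, adjusted p = 4.15e-06), *Npy1r* from 233 and 234 to 324 and 420 CPM (0.67, SE 0.11, adjusted p = 0.00436), and *Sstr2* fell from 19.2 and 15.8 to 9.54 and 12 CPM (-0.68, SE 0.17, adjusted p = 0.00978). The fall of *Sstr2* was not called without the male sham (-0.57, adjusted p = 0.062) or the male CCI library (-0.51, adjusted p = 0.078), and *Npy1r* was at 0.46, under the limit, without the female CCI library. With any UMI as the limit for *Sprr1a* neither was called (adjusted p = 0.16 and 0.29). The rise of *Avpr1a* was in the *Col25a1* cluster, at 2.50, 1.53, 11.5, and 16.7 CPM, more than in the *Dcn* cluster at 0, 0.528, 1.68, and 1.76 CPM. *Galr1* in this class was at 46.5 and 43.6 against 36.8 and 31.8 CPM, lower in both CCI libraries but under the limit for a call (-0.39, SE 0.10, adjusted p = 0.0124), and *Prokr2* at 23.7 and 22.4 against 29.6 and 30.7 CPM (0.40, SE 0.11, adjusted p = 0.0246) likewise.

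In PEP1-like neurons 1 of 7 was called (5.35% of all genes), again *Avpr1a*, from 0.972 and 1.41 to 4.31 and 9.13 CPM (2.50, SE 0.36, adjusted p = 0.00319). Without the male sham library it was 2.27 (adjusted p = 0.054). In its 3 clusters each CCI library was above the sham library of its sex: *Cldn9* at 1.37, 1.43, 4.78, and 10.1 CPM, *Fgg* at 0.609, 2.77, 2.01, and 9.0 CPM, and *Pcp4l1* at 0.417, 0.213, 4.90, and 5.43 CPM. Satellite glia markers fell in this comparison, 6 of 7 with a median of -1.25 log2 units. Satellite glia themselves had no *Avpr1a* UMI in any library, but at their depth a level of a few CPM would give at most a few UMIs. The part of glial or free RNA in the rise of *Avpr1a* was not tested. In PEP3/4-like neurons, where *Avpr1a* is high in sham, it was at 22.1, 20.5, 20.3, and 28.1 CPM and overlapped (0.18, SE 0.13, adjusted p = 0.416). There *Prokr2* rose from 0.981 and 1.52 to 3.10 and 2.86 CPM (1.2, SE 0.31, adjusted p = 0.0173), 1 of 7 called against 3.56% of all genes. The call was lost without the male sham library (0.92, adjusted p = 0.10), without either CCI library (1.14 and 1.27, adjusted p = 0.091 and 0.085), and with DESeq2 (adjusted p = 0.13). *Sstr2* in its main class was at 186, 176, 136, and 124 CPM (-0.49, SE 0.07, adjusted p = 0.000565) and *Npy1r* at 336, 402, 477, and 538 CPM (0.44, SE 0.10, adjusted p = 0.0192). Both differences were larger than the spread of the replicates and just under the fold limit. By cluster, *Sstr2* was at 203, 179, 115, and 100 CPM in the *Cartpt* cluster and at 176, 173, 161, and 148 CPM in the *Dcdc2a* cluster.

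PEP5-like neurons were the exception for *Sstr2*, which rose there from 3.43 and 6.02 to 15.1 and 9.0 CPM (1.27, SE 0.30, adjusted p = 0.0177, 1 of 3 called, 3.54% of all genes). The difference was 0.01 (adjusted p = 0.98) when doublets were kept and 0.85 (adjusted p = 0.19) without the male CCI library. In NP1-like neurons 1 of 3 was called (3.97%): *Cckbr*, at 0, 2.15, 18.6, and 10.8 CPM (3.92, SE 0.73, adjusted p = 0.0150), not called with a limit of 2 for *Sprr1a* (3.78, adjusted p = 0.088). *Cckar* was called in NP2-like neurons, at 0.224, 0.647, 1.01, and 2.25 CPM (1.86, SE 0.51, adjusted p = 0.0276, 1 of 3 called, 4.47%), and in NP3-like neurons, at 0.402, 0.414, 1.88, and 2.28 CPM (2.24, SE 0.57, adjusted p = 0.0199, 1 of 4 called, 2.71%). These *Cckar* levels rest on 36 and 19 CCI UMIs, and leaving out any library of the NP3-like comparison ended the call (adjusted p from 0.075 to 0.23), as did leaving out the male sham (1.27, adjusted p = 0.099) or the female CCI library (1.2, adjusted p = 0.29) in NP2-like neurons, where DESeq2 gave an adjusted p of 0.072. Satellite glia of the CCI libraries held 0 and 2 *Cckar* UMIs (0 and 3.28 CPM), and the part of free RNA in these low levels was not tested. No receptor was called in NF1-like (4 tested, 1.12% of all genes called), NF2-like (5 tested, 1.62%), or cLTMR-like neurons (2 tested, 1.72%). *Cckar* in cLTMR-like neurons was at 48.7, 53.5, 51.2, and 73.3 CPM (0.25, SE 0.19, adjusted p = 0.532).

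A test of the class-by-surgery interaction over the 10 classes, on *Sprr1a*- neurons, found a difference between classes for 3 of the 9 receptors tested: *Avpr1a* (adjusted p = 4.90e-05), *Sstr2* (0.000903), and *Cckar* (0.00145). Of all genes tested 11.5% were called. *Prokr2* (0.0887) and *Npy1r* (0.675) were not, so that for *Npy1r* no difference between classes was shown.

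**Figure D5:**
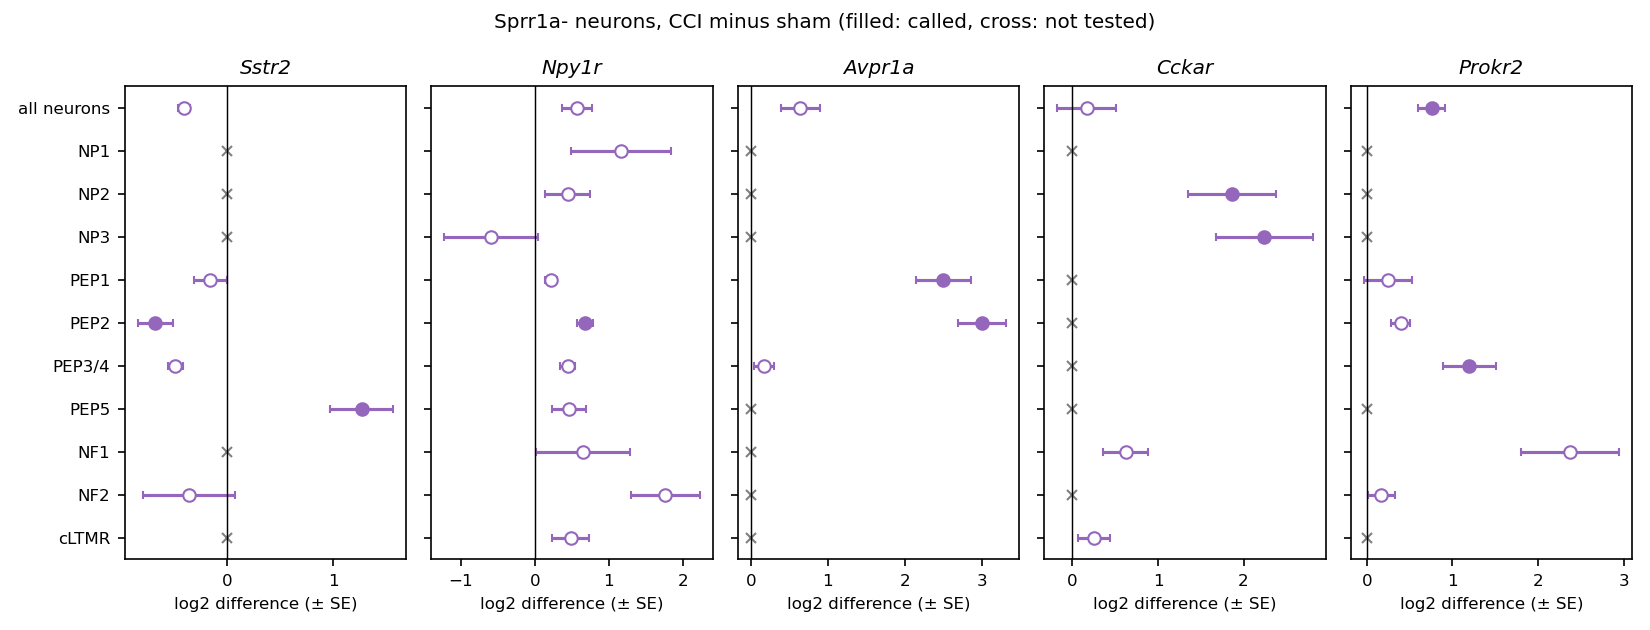
Log2 difference (x axis, ± SE from edgeR) between CCI and sham in Sprr1a- neurons of 5 receptors, over all neurons and in each of 10 classes, with filled points called, open points not called, and crosses not tested. Sstr2 is left of 0 in PEP2 (-0.68) and PEP3/4 (-0.49) and right of 0 in PEP5 (1.27), and Avpr1a is at 2.50 and 3.01 in PEP1 and PEP2 against 0.18 in PEP3/4.

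Counted by cells, the receptors showed the same contrasts. Each cell of at least 10000 UMIs was thinned to 10000 UMIs so that depths were equal. Shallower cells were left out, which left 3075, 5096, 2700, and 3409 neurons. *Cckbr* was then detected in 0.0330% and 0.0807% of *Sprr1a*- sham neurons, 1.46% and 2.14% of *Sprr1a*- CCI neurons, and 35.9% (exact binomial 95% interval 33.3 to 38.4) and 36.2% (33.9 to 38.5) of *Sprr1a*+ CCI neurons, and unthinned in 85.0% and 77.0% of the latter. *Sstr2* was found in 21.1% and 22.9%, 17.6% and 19.0%, and 0.428% and 0.655% of these groups, and *Galr1* in 11.3% and 9.66%, 9.02% and 10.7%, and 0.0713% and 0%. *Npy1r*, the receptor found in most cells, was in 39.4% and 47.3%, 43.0% and 51.3%, and 16.9% and 19.5%, and *Npy2r* in 7.39% and 7.67%, 7.40% and 9.54%, and 19.0% and 17.0%. Intervals cover counting error only. As a background for free RNA, satellite glia (112 to 190 cells, median 4189 to 5175 UMIs against 32490 to 56457 in neurons) were compared at 2000 UMIs per cell, where *Cckbr* was in 10.2% and 8.78% of *Sprr1a*+ CCI neurons and in no satellite glia of either CCI library.

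The number of different receptors per neuron lay between 0.917 and 1.13 on average in the 3 larger groups. At 10000 UMIs a *Sprr1a*- sham neuron had a mean of 0.917 (males) and 1.02 (females) of the 10 receptors, a *Sprr1a*- CCI neuron 0.921 and 1.13, and a *Sprr1a*+ CCI neuron 0.929 and 0.945. The 42 and 139 *Sprr1a*+ sham neurons had 0.786 and 0.676. In sham, *Sstr2* was a companion of *Npy1r*: of *Sstr2*+ *Sprr1a*- sham neurons, 84.1% and 90.8% also had *Npy1r*, and 91.2% and 93.3% in CCI. In *Sprr1a*+ CCI neurons *Npy2r* was found in 37.6% and 33.0% of *Npy1r*+ cells (89 of 237 and 108 of 327), against 7.45% and 8.53% in *Sprr1a*- sham and 6.81% and 9.91% in *Sprr1a*- CCI neurons. As given above, *Npy2r* was also in a larger share of all *Sprr1a*+ CCI neurons than of all *Sprr1a*- neurons. The shares of the other receptors, *Cckbr* among them, in these *Npy1r*+ cells are not given here. Receptors were also counted beside their ligands. Of *Galr1*+ *Sprr1a*- sham neurons 80.4% and 78.5% had a *Gal* UMI, against 45.1% and 50.9% of all *Sprr1a*- sham neurons. Of *Npy1r*+ *Sprr1a*+ CCI neurons 10.5% and 11% had an *Npy* UMI, fewer than the 29.1% and 26.7% of all *Sprr1a*+ CCI neurons. *Gal* was in 84.5% and 89.3% of *Cckbr*+ *Sprr1a*+ CCI neurons, close to the 87.5% and 89.9% of all *Sprr1a*+ CCI neurons. At 2000 UMIs per cell, *Gal* was in 3.16% and 0.667% of satellite glia in sham and in 15.4% and 27.7% in CCI, against 33.4% and 38.0% of *Sprr1a*- sham and 71.9% and 75.3% of *Sprr1a*+ CCI neurons, and the part of free RNA in the shared cells was not tested. These shares are counts of cells and carry no test.

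The other genes of these pathways were followed as 4 lists. Of 14 ligands, 9 could be tested in *Sprr1a*+ CCI against *Sprr1a*- sham neurons, where 49.8% of all genes were called, and 4 rose and 4 fell: *Npy* by 11.9 and *Gal* by 4.35 log2 units upward and *Sst* by 7.26 downward, with *Cck* at 1.06. So *Gal* rose while *Galr1* and *Galr2* fell, and *Sst* fell together with *Sstr2*. Of 4 further receptors of the same families that could be tested, all fell: *Prokr1* (-3.00), *Npy4r* (-2.16), *Oxtr* (-1.60), and *Npy5r* (-1.26), which leaves *Prokr2* moving against the other prokineticin receptor. Among 22 other neuropeptide receptors 4 rose and 11 fell, with the largest changes in *Ntsr2* (-5.17) and *Ntsr1* (-3.67) for neurotensin, *Npffr2* for neuropeptide FF (-5.05), *Npr3*, the natriuretic peptide clearance receptor (3.76), and *Adcyap1r1* for PACAP (-3.64). Among 32 G proteins and effectors 5 rose and 15 fell, a share to be read against the same 49.8%, with *Kcnj5*, a subunit of G protein-gated potassium channels, at 7.04, its partner *Kcnj3* at -2.32, the receptor kinase *Grk3* at -3.31, adenylyl cyclase *Adcy8* at -3.08, and phospholipase *Plcb3* at -2.81. The median log2 change was -0.48 for the 10 receptors, -1.33 for the other neuropeptide receptors, -0.11 for the G proteins and effectors, and -0.01 for all genes.

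In *Sprr1a*- neurons, where 4.48% of all genes were called, few genes of these lists were. *Npy* rose by 5.43 and *Avp* fell by 0.88 among 8 ligands, none of 4 family receptors was called, *Ntsr2* (-0.65) and *Ednra* (-0.52) fell among 22 other neuropeptide receptors, and *Kcnj3* fell (-0.66) among 31 G proteins and effectors. *Gal*, at 0.57 (adjusted p = 0.053), was not called. The median over the 10 receptors was 0.18 against 0.00 for all genes.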

How the data were processed

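As deposited, the 4 matrices held raw UMI counts per gene and called cell, which the authors made with Cell Ranger on the mm10 genome, with no normalization or filter on cells. The sources used here name different versions of it: the submitters' processing notes give 2.1.1, the matrix headers 3.0.2. Depth, the filters on cells, and the limit for *Sprr1a*+ are given with the results. Doublets were scored with Scrublet in scanpy 1.11.5 (expected rate 0.1). Its automatic threshold marked 0 to 121 cells, so the 601 to 1381 cells with the highest scores were removed per library, in the numbers that the study removed. Seurat 5.3.0 integrated the libraries on 3000 variable genes, without the 10 receptors, and clustered 20 principal components at resolution 0.8 into 29 clusters. A cluster was named where at least 3 markers of a class were in at least 10% of its cells at 2 or more times the level elsewhere. In 5 neuronal clusters at least 5 of 7 satellite glia markers passed.

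For each group of cells the UMIs of a library were added up, and the sums were tested with edgeR 4.0.16 (robust quasi-likelihood test, TMM, filterByExpr), in groups of at least 10 cells in every library, with p-values adjusted (Benjamini-Hochberg) over all genes tested. A call needs an adjusted p below 0.05 and a log2 change above 0.5 in size. The test was checked on simulated counts first. The members and lists were chosen with earlier results of these data known. The text names the 10 receptors, *Gal*, *Sst*, *Npy*, *Cck*, and, of each list, at most the 5 called genes with the largest change, and of the genes most like a receptor the first of 2 found, with the second for *Cckbr*. A gene with no UMI in a group has a fold only as a bound against 3 UMIs over the group, and a gene with 1 to 3 UMIs a ratio with an exact 95% interval. R 4.3.3, Python 3.11.15, scipy 1.17.1, and numpy 2.4.6 were used. The results were also computed with sex as a replicate block, with DESeq2 1.42.0, without filterByExpr, without each library in turn, with doublets kept, with at least 3000 genes per cell, with other limits for *Sprr1a*, with resolutions of 0.4 and 1.2, with the receptors among the clustered genes, and with thinning to 5000 UMIs or not at all.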

Additional observations from a re-analysis of the deposited data

Results flagged for a closer look

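In *Sprr1a*- neurons the change from sham to CCI differed between the 10 classes for *Avpr1a* (adjusted p = 4.90e-05), *Sstr2* (adjusted p = 0.000903), and *Cckar* (adjusted p = 0.00145), by edgeR's test of the class-by-surgery terms.

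Other receptors moved in opposite directions in the sexes, each of which has 1 library per surgery, so the difference was not tested. Over all neurons the log2 ratio of CCI to sham was -0.55 in males and 0.01 in females for *Avpr1a*, a difference of -0.56. In *Sprr1a*- neurons the male ratio minus the female ratio was -0.58 for *Cckar*, -0.48 for *Npy2r*, -0.25 for *Galr1*, and 0.024 for *Sstr1*, and the last was close to 0 in both sexes.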

How the results depend on the processing

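Of 1097 values of single receptors under an alternative (83 results), 1013 kept their direction and, where tested, their side of the threshold. Another 49 lost and 17 gained a call, 13 changed direction, and 5 without a test kept their direction but moved by a fixed log2 limit or more. The calls over all neurons (7, between 7 and 8 under the alternatives), of *Sprr1a*+ CCI against *Sprr1a*- sham neurons (9, between 7 and 10), of *Sprr1a*+ against *Sprr1a*- neurons within CCI (6, between 6 and 8), and of the class-by-surgery test (3 throughout) stayed within 1.5 times the main number, and the class with the highest sham level was the reported one for all 10 receptors under the 5 alternatives tried on classes.

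The results in *Sprr1a*- neurons depended most on the processing. With sex as a replicate block 5 receptors were called in place of 2. Across genes, the male-minus-female difference in sham and that in CCI had a Pearson r of 0.642 in these neurons, but with 1 library per sex and surgery, and no label that ties the mice of a pair, sex was not taken as a pairing. Leaving out each library in turn gave 1 to 3 receptors, with 1 without the male sham library and 1 without the female CCI library. By class, 9 calls became 2 with DESeq2, 20 with no filter on low counts, 14 with doublets kept, and 4 to 13 without each library in turn, with 4 without the male sham library. Of *Sprr1a*+ against *Sprr1a*- neurons by class in CCI, 19 calls became 12 with DESeq2 and 8 with any UMI as the limit for *Sprr1a*. For the receptors called under these alternatives, here and in the paragraph above, the share of all genes called is not given. A change in these counts is therefore no result about the receptors. The causes were not tested.

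The changes of direction were in values that were not called. Over all neurons *Npy1r* (-0.05) ranged from -0.26 to 0.16 and *Avpr1a* (-0.17) from -0.60 to 0.16 without each library in turn, the highest value of *Npy1r* without the female sham library (0.16) and the next without the male CCI library (0.13). In *Sprr1a*- neurons *Cckar* (0.17) ranged from -0.35 to 0.54 and *Sstr1* (-0.02) from -0.077 to 0.035, with 0.014 without the male CCI library. With any UMI as the limit, *Galr1* was 0.19, *Sstr2* 0.068, and *Sstr1* 0.22 higher in CCI, and *Sstr1* was 0.0081 higher with a limit of 2 and 0.076 higher without the 5 clusters with satellite glial RNA. Within CCI, *Sstr1* (0.42) was -0.035 with any UMI and -0.0086 to 0.48 with 1 library. The alternatives without the clusters of satellite glial RNA and without barcodes found in more than 1 library were chosen after seeing the data.

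With 2 libraries per surgery a call within a class can rest on 1 library, and a receptor of a few CPM on few UMIs. The PEP5-like *Sprr1a*+ groups held only 17 (Male-CCI) and 20 cells (Female-CCI), and a group of NP1-like *Sprr1a*- neurons held 31. *Galr2* and *Sstr1* were too low for most classes to be tested.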

Other observations

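In the other comparisons the pathway genes were called as follows. Over all neurons, where 27.8% of all genes were called, of 9 ligands tested 2 rose (*Npy* by 6.50 and *Gal* by 3.37 log2 units) and 3 fell (*Avp*, *Sst*, and *Gast*, at -1.66, -1.43, and -1.35). Of 4 further receptors of the same families 2 fell (*Oxtr*, -0.78, and *Prokr1*, -0.74), of 22 other neuropeptide receptors 2 rose and 8 fell, and of 32 G proteins and effectors 2 rose and 8 fell. Within CCI libraries, where 45.6% of all genes were called, *Sprr1a*+ against *Sprr1a*- neurons had 2 of 6 ligands higher and 2 lower, all 4 family receptors lower, 5 of 20 other neuropeptide receptors higher and 10 lower, and 3 of 31 G proteins and effectors higher and 15 lower. There *Gal* had a log2 difference of 3.80 and *Sst* one of -6.79, while *Cck* differed by 0.11 (adjusted p = 0.66). These comparisons share libraries with those above.

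An unnamed cluster led by *Calb1*, *Rxfp1*, and *Prlr* (263 cells) had no UMI of *Galr1*, *Galr2*, or *Prokr2* in any library. *Npy1r* there was at 7.75, 1.69, 2.61, and 20.0 CPM and *Cckar* at 0.862, 11.3, 4.35, and 6.17 CPM, with no order by surgery.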
